A study of Homo sapiens with 2 samples.

Results

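Collagens and the enzymes and chaperones that modify them were examined in cells labelled MiaPaca2, a line named MIA PaCa-2 that was established from a human pancreatic adenocarcinoma. The genes were chosen by name: protein-coding genes for a collagen alpha chain, lysyl oxidase and its 4 relatives, the prolyl 4-hydroxylase subunits, the prolyl 3-hydroxylase family with CRTAP, the lysyl hydroxylases and SERPINH1. The names matched 62 of the 46427 genes in the table, 44 collagen genes and 18 genes for enzymes and chaperones. Total RNA was sequenced from cells given vehicle or iMQT_020, described by the submitters as an inhibitor of mitochondrial glutamine transport, both for 48 hours. The comparison asks how transcript levels differed after exposure to the compound. Each treatment was 1 library, so no difference has a replicate check, no p-value was computed, and the compound cannot be told apart from anything else that differed between the libraries.

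Estimated counts totalled 67095283 for vehicle and 59139157 for iMQT_020. The labelled origin is in doubt. MIA PaCa-2 is known for a homozygous deletion of CDKN2A, yet that gene stood at 278 TPM (a transcript level scaled to length and depth) with vehicle and 208 TPM with iMQT_020. Of 5 epithelial markers of pancreatic adenocarcinoma, KRT8 and KRT18 were at 77.5 to 128 TPM. KRT19 was at 0 counts in both libraries, and EPCAM and CDH1 had at most 7 counts. Whether MIA PaCa-2 usually lacks KRT19, EPCAM and CDH1 was not examined, so the doubt rests on CDKN2A. Fibroblasts make much of the collagen in tissue, and the 7 fibroblast markers read here summed to 3.06 TPM (vehicle) and 3.43 TPM (iMQT_020), with FAP, THY1 and DCN at 0 counts in both. The 4 endothelial markers summed to 0.443 and 0.613 TPM and the 4 leukocyte markers to 0.528 and 0.662 TPM.

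Collagens are extracellular proteins in which a trio of alpha chains winds into a triple helix, either from identical chains or from the products of different genes. In the endoplasmic reticulum, prolines and lysines of the chains are hydroxylated by enzymes that use oxygen, iron, ascorbate and 2-oxoglutarate, a product of glutamine breakdown, and chaperones hold the helix until export. Outside the cell, propeptides are trimmed and lysyl oxidases, which are copper enzymes, start the crosslinks between chains. Several of the hydroxylase and oxidase genes are known targets of hypoxia-inducible factors.

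The stretches of DNA before the starts of 4 genes are shown for reference. COL4A1 and COL4A2 are transcribed in opposite directions from one short interval on chromosome 13, with 126 bases between the RefSeq start sites, and their levels are compared below as a pair. COL27A1 and COL26A1 were at least 2-fold lower in the iMQT_020 library. Sequences are from RefSeq on GRCh38.p14, 5′ to 3′ on the plus strand, without bases of exons annotated in GENCODE 44. Capitals mark, on either strand, ACGTG, known as the core to which hypoxia-inducible factors bind, its variant GCGTG, the CCAAT box, the GC box written GGGCGG, and the TATA box written TATAAA. Marked letters can overlap in part.
COL4A1 and COL4A2, chr13:110307158-110307257: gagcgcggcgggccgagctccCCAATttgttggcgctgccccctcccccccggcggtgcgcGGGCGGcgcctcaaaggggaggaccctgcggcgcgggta
COL27A1, chr9:114155287-114155536: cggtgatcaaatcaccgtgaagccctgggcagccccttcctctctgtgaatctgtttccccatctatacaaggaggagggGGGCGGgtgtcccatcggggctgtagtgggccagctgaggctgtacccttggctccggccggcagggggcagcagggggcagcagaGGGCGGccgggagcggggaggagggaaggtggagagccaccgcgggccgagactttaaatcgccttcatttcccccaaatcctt
COL26A1, chr7:101362625-101362874: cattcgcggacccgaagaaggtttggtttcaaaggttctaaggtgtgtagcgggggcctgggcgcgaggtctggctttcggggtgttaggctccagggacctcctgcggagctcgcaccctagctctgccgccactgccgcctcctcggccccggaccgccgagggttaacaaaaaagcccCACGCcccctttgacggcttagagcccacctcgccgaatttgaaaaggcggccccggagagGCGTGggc

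The interval between COL4A1 and COL4A2 held 1 CCAAT box and 1 GC box, which were found in 18.1% and 31.3% of the last 100 bases before all 35116 RefSeq start sites. The 250 bases before COL27A1 held the GC box at 2 places and none of the other letters, and those before COL26A1 held GCGTG at 2 places only. Of all such 250-base windows, 42.6% held the GC box and 32.2% held GCGTG. Both genes have annotated sequence upstream of these windows, so the start sites shown are not their outermost ones. RefSeq windows were found for 47 of the 62 genes, and matching letters are a description, not a site of binding.

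Genes that reached 50 counts in either library were called measured, which held for all 18 enzyme and chaperone genes and for 22 of the 44 collagen genes. By deposited TPM, which is scaled to transcript length and so allows genes to be compared, the measured genes ran from 0.442 (COL19A1) to 404 (P4HB) in the vehicle library. The collagen genes with the highest vehicle TPM were COL6A1 at 85.5, COL4A2 at 62.2 and COL6A2 at 49.3. The 22 collagen genes under 50 counts included those for major fibrillar chains of connective tissue: COL1A2 had 0 counts in both libraries, COL2A1 had 27 and 14, and COL3A1, just under the minimum, had 49 (vehicle) and 21 (iMQT_020). P4HA3, just above it, had 55 and 42 counts.

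**Figure D1:**
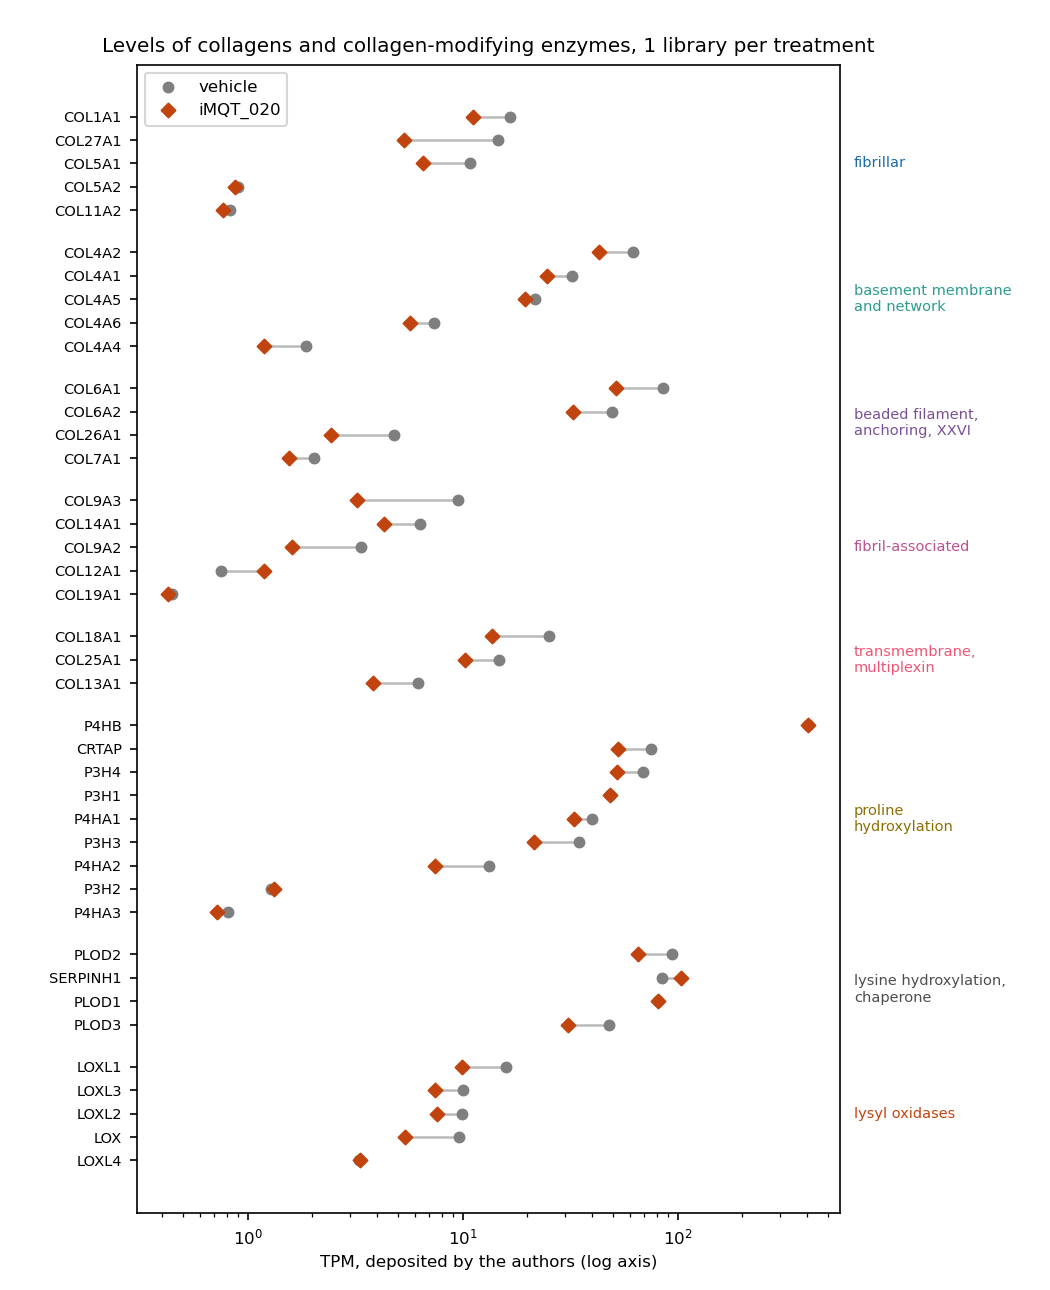
Deposited TPM (horizontal log axis) of the 40 measured genes, grouped by role and ordered by vehicle level, with 1 grey circle for the vehicle library and 1 orange diamond for the iMQT_020 library. P4HB is at 404 and 403 TPM, and the diamond lies to the right of the circle for COL12A1, SERPINH1, P3H2 and, by less than the symbol, LOXL4.

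Transcripts of collagens and of most of their modifying enzymes were lower in the iMQT_020 library. Of the 40 measured genes, 37 had a log2 ratio (iMQT_020 over vehicle, of counts scaled to library size, or CPM) below 0, against 52.7% of all 14805 measured genes. The median of the 40 was −0.51, against −0.02 for all measured genes. In bulk RNA, fewer cells that make a transcript and less of it in each cell cannot be told apart. Few differences were large: 3 genes were at least 2-fold lower (3.09% of all measured genes were) and 0 at least 2-fold higher (2.15% of all). At a 1.5-fold limit, 17 were lower (10.2% of all) and 1 higher (6.30% of all). The exact 95% interval of the ratio, which covers counting error only, lay below 0 for 32 genes (39.1% of all) and above 0 for 2 (35.0% of all).

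The collagen genes had a median of −0.61 with 21 of 22 below 0, and the enzyme and chaperone genes a median of −0.43 with 16 of 18 below 0. The 52.7% of all measured genes that were below 0 is also the share to set beside each smaller group below. Deposited TPM summed over all 44 collagen genes was 378 with vehicle and 246 with iMQT_020. Summed over the 18 enzyme and chaperone genes it was 1042 and 934, of which P4HB alone gave 404 and 403. By TPM 36 of the 40 were lower in the iMQT_020 library, against 47.6% of all measured genes, and by FPKM (fragments scaled to transcript length and depth) 37 were, against 52.5%. In these libraries the ratio also varies with the GC content and length of transcripts, and the measured collagen genes had a median GC content of 60.8% against 48.5% for all genes. With the ratio centred in joint bins of GC content and length, 33 of the 40 were below 0 (49.8% of all) and their median was −0.43. The 49.8% is nearly fixed in advance, since centring subtracts the median of each bin. The 2 groups differed here: 21 of 22 collagen genes were below 0, with a median of −0.54. Of the 18 enzyme and chaperone genes 12 were, with a median of −0.28.

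**Figure D2:**
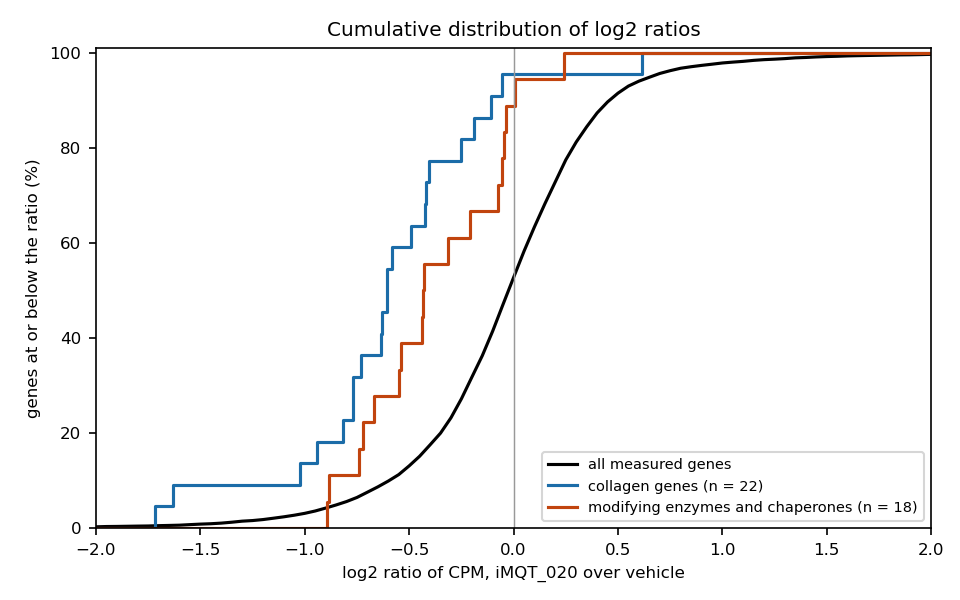
Cumulative percent of genes (vertical axis) at or below each log2 ratio, iMQT_020 over vehicle (horizontal axis), for all 14805 measured genes (black), the 22 measured collagen genes (blue) and the 18 enzyme and chaperone genes (orange). At a ratio of 0 the black line stands at 52.7%, and both coloured lines lie above it there, with medians of −0.61 and −0.43 against −0.02.

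Among the fibrillar collagens, which form the banded fibrils of connective tissue, 5 of 11 were measured, all 5 were below 0 and 1 was at least 2-fold lower. COL27A1, a fibrillar chain known from cartilage (chromosome 9, 114154098 to 114312511), had 3177 (vehicle) and 856 (iMQT_020) counts, 14.6 and 5.35 TPM, and 6.02 and 2.13 FPKM. Its log2 ratio was −1.72 (−1.83 to −1.61), 3.28-fold lower, and only 0.466% of all measured genes had a lower ratio. By TPM the log2 ratio was −1.45. COL5A1, a chain of type V collagen that helps to start fibrils, had 2708 and 1405 counts (−0.77, −0.86 to −0.68). COL1A1, the main chain of type I collagen, had 2797 and 1624 counts, 16.5 and 11.1 TPM, and a ratio of −0.61 (−0.70 to −0.52). COL11A2 had 164 and 122 counts and COL5A2 had 183 and 150, with intervals that include 0.

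Some chains that usually join one another were far apart in level. COL4A1 and COL4A2 were within 2-fold of each other by TPM in each library, as were COL6A1 and COL6A2. Type I collagen usually pairs COL1A1 with COL1A2, and COL1A2 was listed at 0 in both libraries, where a count of 0 allows up to 3 counts, or 0.0448 CPM (vehicle) and 0.0506 CPM (iMQT_020). COL6A1 and COL6A2 usually need a further chain from COL6A3, COL6A5 or COL6A6, and these had 12, 16 and 21 counts with vehicle and 6, 6 and 20 with iMQT_020. Type IX collagen joins chains of COL9A1, COL9A2 and COL9A3, and COL9A1 had 8 and 5 counts. COL5A1 stood at 10.8 TPM (vehicle) and 6.52 TPM (iMQT_020), and its partner COL5A2 at 0.899 and 0.871 TPM. COL4A4 had 502 and 286 counts (−0.63, −0.85 to −0.42), while COL4A3, with which it is usually assembled, had 13 and 20.

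**Figure D3:**
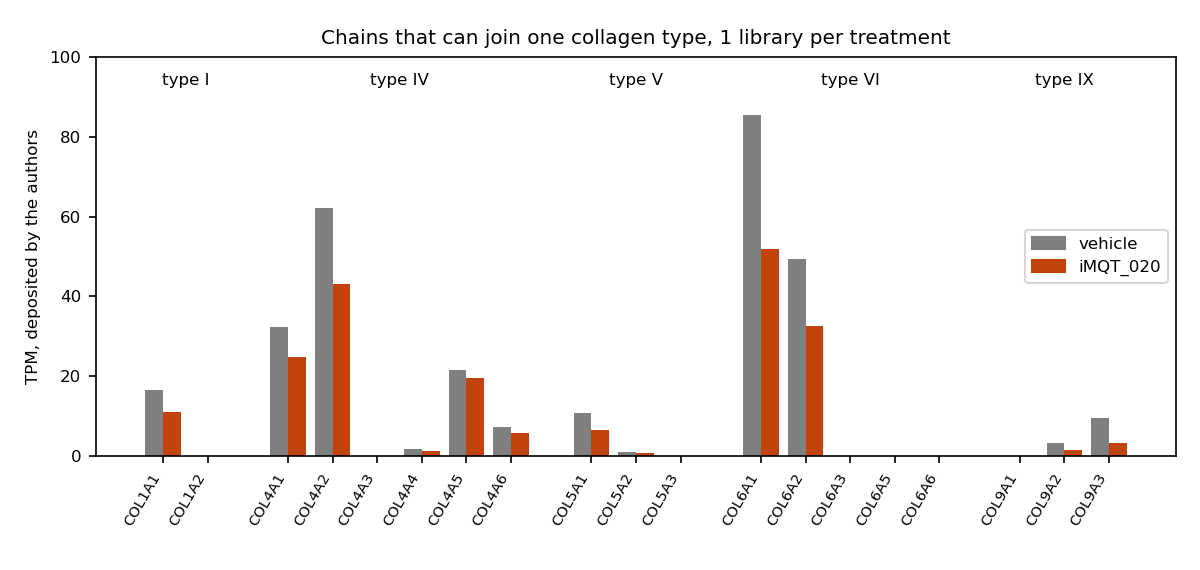
Deposited TPM (vertical axis, from 0) of the chains of collagen types I, IV, V, VI and IX, with 1 grey bar for the vehicle library and 1 orange bar for the iMQT_020 library. COL1A2, COL4A3, COL5A3, COL6A3, COL6A5, COL6A6 and COL9A1 show no visible bar beside partners that reach 85.5 TPM.

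Type IV collagen forms the network of basement membranes, and 5 of its 6 chain genes were measured, all below 0 and none 2-fold apart. COL4A2 (chromosome 13, 110307284 to 110513209) had 11956 and 7078 counts, 62.2 and 43.0 TPM, and a ratio of −0.58 (−0.62 to −0.54). COL4A1 (110148963 to 110307157), which shares the start interval shown above, had 6320 and 4185 counts, 32.3 and 24.7 TPM, and a ratio of −0.42 (−0.48 to −0.36). Both genes of the pair were thus lower, but so were most collagens, with 21 of the 22 measured collagen genes below 0. COL4A2 stood at 1.93 times the TPM of COL4A1 with vehicle and 1.74 times with iMQT_020. COL4A5 and COL4A6, a second pair of opposite direction on chromosome X, had 4183 and 3244 counts (−0.19, −0.26 to −0.12) and 1422 and 937 counts (−0.43, −0.55 to −0.31). COL4A4 and COL4A3 are also a pair of opposite direction, on chromosome 2. COL4A4 was lower, as given above, while COL4A3 was not measured, with 13 and 20 counts (0.77, −0.28 to 1.93). The network collagens COL8A1, COL8A2 and COL10A1 had at most 4 counts.

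Type VI collagen forms beaded filaments around cells. COL6A1 (chromosome 21, 45981770 to 46005048) had 10713 and 5565 counts, 85.5 and 51.9 TPM, and a ratio of −0.77 (−0.82 to −0.72). COL6A2, further along the same chromosome (46098112 to 46132848), had 5010 and 2864 counts, 49.3 and 32.5 TPM, and a ratio of −0.63 (−0.70 to −0.56). Both were over 1.5-fold lower, at 1.70-fold and 1.55-fold. COL7A1, the collagen of anchoring fibrils in skin, had 535 and 357 counts (−0.41, −0.61 to −0.21).

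COL26A1, a gene for a small secreted protein with collagen repeats (chromosome 7, 101362388 to 101559024), had 430 and 187 counts, 4.77 and 2.44 TPM, and 1.96 and 0.971 FPKM. Its ratio of −1.02 (−1.28 to −0.77) lies at the edge of the 2-fold rule, and centring on GC content and length gave −0.70.

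Fibril-associated collagens sit on the surface of other fibrils, and they included both the second lowest and the highest ratio of the 40 genes. COL9A3 (chromosome 20, 62816213 to 62841159) had 688 and 196 counts, 9.46 and 3.21 TPM, and 3.89 and 1.28 FPKM, a ratio of −1.63 (−1.87 to −1.40) or 3.10-fold lower. Its exons share 155 bases with TCFL5 on the opposite strand, which had 2767 and 2114 counts. COL9A2, its partner in type IX collagen, had 287 and 144 counts (−0.82, −1.12 to −0.52), and its TPM of 3.35 and 1.61 gave −1.05. The ratio of COL9A3 to COL9A2 by TPM was 2.82 with vehicle and 1.99 with iMQT_020.

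COL14A1 and COL12A1 encode related collagens that coat type I fibrils. COL14A1 had 1551 and 902 counts, a ratio of −0.61 (−0.73 to −0.49). COL12A1 had 263 and 357 counts, 0.750 and 1.19 TPM, and a ratio of 0.62 (0.38 to 0.85), 1.53-fold higher. Centring on GC content and length gave 0.47 for COL12A1, within the 1.5-fold limit. COL14A1 and COL12A1 thus had ratios of opposite sign. Their intervals do not overlap, though these cover counting error only. COL19A1 had 149 and 127 counts, with an interval that includes 0.

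The 3 measured collagens of the transmembrane and multiplexin groups were all below 0. COL18A1, whose product is the source of endostatin, had 4089 and 1884 counts, 25.2 and 13.6 TPM, and a ratio of −0.94 (−1.02 to −0.86), 1.92-fold lower. Of its exonic bases 18.5% are shared with SLC19A1 on the opposite strand, which had 4684 and 3030 counts (−0.45). COL13A1, a transmembrane collagen known at the neuromuscular junction, had 561 and 299 counts (−0.73, −0.94 to −0.53). COL25A1, a transmembrane collagen known from amyloid plaques, had 2943 and 1855 counts (−0.49, −0.57 to −0.41).

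**Figure D4:**
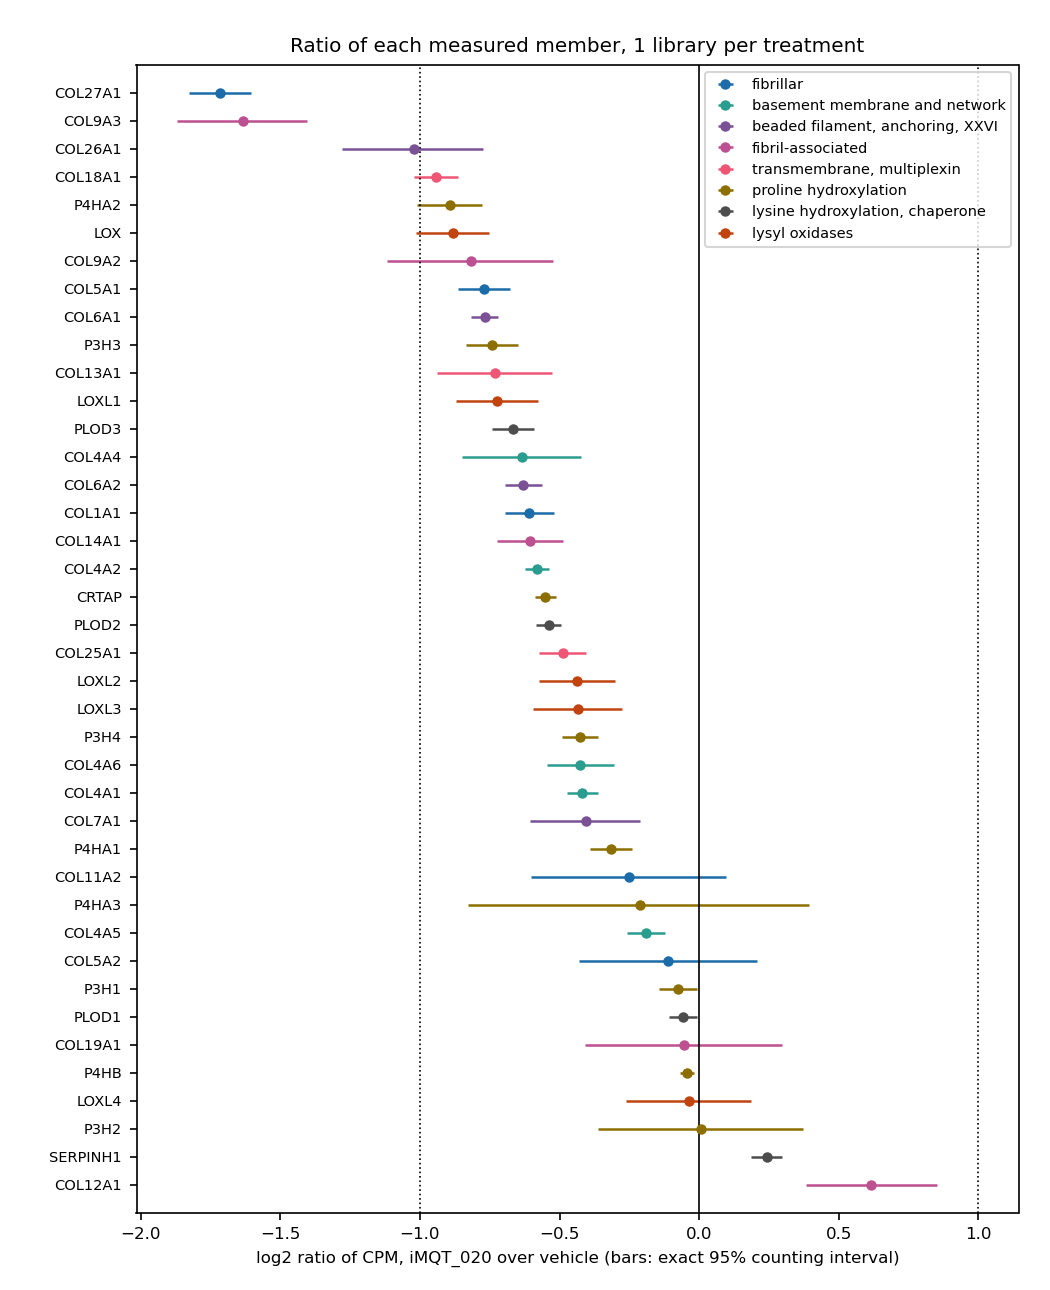
Log2 ratio of CPM, iMQT_020 over vehicle (horizontal axis), for each of the 40 measured genes, coloured by role, with exact 95% counting intervals as bars and dotted lines at 2-fold. COL27A1, COL9A3 and COL26A1 lie at or beyond the left dotted line, and P3H2, SERPINH1 and COL12A1 lie to the right of 0.

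The 9 genes grouped under proline hydroxylation, P3H3 and P3H4 among them, had a median of −0.32, with 8 below 0 and 0 that were 2-fold apart. P4HB, the disulfide isomerase that is also the beta subunit of prolyl 4-hydroxylase, had 29774 and 25552 counts and a ratio of −0.04 (−0.07 to −0.02), which GC and length centring turned to 0.11. Its catalytic partners were lower: P4HA1 had 3394 and 2414 counts (−0.32, −0.39 to −0.24). P4HA2 had 1911 and 910 counts, 13.2 and 7.46 TPM, and a ratio of −0.89 (−1.01 to −0.78), 1.86-fold lower. P4HA1 stood at 3.02 times the TPM of P4HA2 with vehicle and 4.42 times with iMQT_020. P4HA3 had 55 and 42 counts (−0.21, −0.83 to 0.39).

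CRTAP and P3H1 act in one complex with PPIB, a proline isomerase, which 3-hydroxylates single prolines. CRTAP had 14711 and 8886 counts, 74.8 and 52.8 TPM, and a ratio of −0.55 (−0.59 to −0.51). P3H1 had 3853 and 3238 counts, 48.6 and 48.3 TPM, and a ratio of −0.07 (−0.14 to −0.01), with 0.08 after centring. The ratio of CRTAP to P3H1 by TPM was 1.54 with vehicle and 1.09 with iMQT_020. P3H3 and P3H4, which act with the lysyl hydroxylase PLOD1, had 2714 and 1436 counts (−0.74, −0.83 to −0.65) and 4887 and 3214 counts (−0.43, −0.49 to −0.36). P3H2 had 134 and 119 counts, a ratio of 0.00 (−0.36 to 0.37) that was below 0 with median-of-ratios scaling.

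The 3 lysyl hydroxylases differed among themselves. PLOD1 had 7263 and 6175 counts and a ratio of −0.06 (−0.11 to −0.01), which centring turned to 0.11. PLOD2, which hydroxylates the telopeptide lysines used in crosslinks, had 10734 and 6535 counts, 94.1 and 65.3 TPM, and a ratio of −0.54 (−0.58 to −0.50). PLOD3, which also adds sugars to hydroxylysine, had 4010 and 2233 counts, 47.7 and 31.0 TPM, and a ratio of −0.67 (−0.74 to −0.59). The counting intervals of PLOD2 and PLOD3 thus lay below that of PLOD1, though these cover counting error only.

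SERPINH1, the collagen chaperone HSP47 (chromosome 11, 75562253 to 75572783), was higher in the iMQT_020 library. It had 5200 and 5441 counts, 84.6 and 103 TPM, and 34.8 and 41.1 FPKM. Its ratio was 0.24 (0.19 to 0.30), 1.18-fold higher, and 76.8% of all measured genes had a lower ratio. The ratio of SERPINH1 stayed above 0 under each alternative scaling, prior count and unit and with the centring, between 0.23 and 0.48.

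All 5 lysyl oxidase genes were below 0, with a median of −0.44, none 2-fold apart. LOX (chromosome 5, 122063195 to 122078259) had 1444 and 693 counts, 9.61 and 5.40 TPM, and a ratio of −0.88 (−1.02 to −0.75), 1.84-fold lower. LOXL1 had 1108 and 594 counts (−0.72, −0.87 to −0.58). LOXL2 had 1103 and 721 counts (−0.44, −0.57 to −0.30). LOXL3 had 807 and 528 counts (−0.44, −0.60 to −0.28), but 20.7% of its exonic bases are shared with HTRA2 on the opposite strand, which had 2526 and 1673 counts (−0.42). LOXL4 had 356 and 307 counts (−0.04, −0.26 to 0.19), which deposited TPM and centring turned to above 0.

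The 6 genes listed as known targets of hypoxia-inducible factors were P4HA1, P4HA2, PLOD1, PLOD2, LOX and LOXL2. All were below 0 (52.7% of all measured genes were), with a median of −0.49 and a range of −0.89 to −0.06. After centring on GC content and length 5 were below 0, and PLOD1 was at 0.11. The other 12 enzyme and chaperone genes had a median of −0.32, with 10 below 0 and a range of −0.74 to 0.24. The 22 measured collagen genes, none of them on the list, had a lower median of −0.61. Earlier results of these data, values of P4HA2 and LOX among them, were known when the list was made. The direction of its genes therefore adds no independent support, and a part played by these factors was not tested. The 250-base windows before the start sites of P4HA1, PLOD1, PLOD2 and LOX held at least 1 of the 2 hypoxia core motifs spelled out above. That of P4HA2 held neither, and LOXL2 had no window. Of the 32 measured members with a window, 59.4% held one before any of their start sites, and 43.2% of all single windows did.

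Other genes of collagen biology, from lists that hold none of the 62, were read in the same way. Of 14 genes for folding and export, all measured, 0 were 2-fold apart and the median was −0.09. Below 0 were 9 of them, or 64.3%, against 52.7% of all measured genes. FKBP10, a proline isomerase of collagen, had 19970 and 10004 counts (−0.82, −0.86 to −0.79), and HSP90B1, at the highest TPM in the list, had 982 and 976 TPM. MIA3, which loads procollagen into export carriers, had 9022 and 10280 counts (0.36, 0.32 to 0.41). COLGALT1, a collagen galactosyltransferase, was at −0.32 and PDIA3, a disulfide isomerase, at −0.26.

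Of 9 genes for procollagen trimming, 8 were below 0 (52.7% of all measured genes were), with a median of −0.36. On the high side 0 passed the 2-fold rule (2.15% of all) and on the low side 1 (3.09% of all). That gene was ADAMTS14, an aminopropeptidase with few counts, 72 and 10 (−2.62, −3.79 to −1.71). ADAMTS2, of the same family, had 835 and 396 counts (−0.90, −1.08 to −0.73). TLL1, a carboxypropeptidase, was at −0.86 and PCOLCE, which enhances such enzymes, at −0.55, while FURIN was the most abundant at 32.7 and 37.2 TPM.

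Of 13 degradation genes 9 were measured, 8 below 0 (52.7% of all measured genes were) and none 2-fold apart, with a median of −0.33. TIMP3, an inhibitor of matrix proteases, had 2712 and 1354 counts (−0.83, −0.92 to −0.73). MMP2, a gelatinase, had 933 and 495 counts (−0.74, −0.90 to −0.58), and MRC2, a receptor that takes up collagen, was at −0.70. CTSK, a collagen-cutting lysosomal protease, had 84 and 129 counts (0.79, 0.39 to 1.21). The inhibitor TIMP1 had the highest TPM, 161 and 133, and the collagenases MMP1, MMP8 and MMP13 had at most 4 counts.

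Of 9 collagen receptor genes 6 were measured, with a median of −0.16. Below 0 were 5 (52.7% of all measured genes were), and 1 was at least 2-fold higher (2.15% of all). That gene was ITGA10, an integrin chain, with 51 and 94 counts (1.05, 0.55 to 1.58). DDR2 and DDR1, receptor tyrosine kinases, were at −0.30 and −0.24, ITGA2 at −0.27, and ITGB1, the shared beta chain with the highest TPM, at −0.01 (−0.05 to 0.03).

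Intervals throughout cover counting error only, and the spread between cultures was not measured. No source used here gives the strand setting of the counting. Without strand, reads of genes that share exonic bases on opposite strands could not be told apart. Of the 40 measured genes, 19 share some exonic bases with another gene, 17 of them on the opposite strand. Among the 21 that share none, the median was −0.43, with 18 below 0 and 2 past the 2-fold rule, both lower.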

How the data were processed

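The data were 2 RNA-seq libraries, 1 from vehicle and 1 from iMQT_020. Per the labels' protocols, RNA came from a Trizol extraction and HISAT2 with Bowtie2 placed the reads on GRCh38. The submitters' processing notes also list StringTie and edgeR, with no version and no stated use. The table that the authors deposited has estimated counts in whole numbers, FPKM and TPM for each gene, and a shorter one repeats FPKM for 20787 genes. Table columns were matched to samples by their names, and 0 columns were left over.

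Counts were scaled by TMM in edgeR 4.0.16 (R 4.3.3), with factors of 0.998 (vehicle) and 1.00 (iMQT_020), and log2 ratios used a prior count of 0.5. Exact Clopper-Pearson 95% intervals treat the estimates as whole reads, so they may be too narrow. A count of 0 was read against a floor of 3 counts per library. All measured members were named, and of each other list the 4 genes with the largest absolute ratio and the most abundant one; a few genes outside this rule were named after their values were seen. The members and lists were chosen with earlier results of these data known. GC content and length came from GENCODE 44 canonical transcripts for 93.6% of measured genes, with 10 bins each. Gene positions came from RefSeq on GRCh38.p14 by gene ID, for all 62 members. Alternatives were 3 other scalings (DESeq2 1.42.0 for median of ratios), other minimum counts, a prior of 5, other fold rules, log2(value + 1) of FPKM or of TPM where a gene reached 1, and the centring. On simulated Poisson counts for 14596 measured genes, with 200 changed, the 2-fold rule passed 100% of 3-fold and 0% of 1.5-fold changes and 5 unchanged genes. The changed genes were drawn from those with at least 100 expected counts in the vehicle library. These percents therefore do not cover genes near the minimum of 50 counts. Spread between cultures was not simulated, so the 5 unchanged genes are no measure of false calls between cultures.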

Additional observations from a re-analysis of the deposited data

How the results depend on the processing

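No paired analysis was possible because each treatment had 1 library, and for the same reason no library could be left out. The median log2 ratio of the members lay between −0.58 and −0.43 under all 11 alternatives run on it, among them one chosen after seeing the data, which kept only members that share no exonic base with another gene. The 2-fold rule passed 1 higher and 6 lower members when 10 counts sufficed. When 1 count sufficed it passed 6 and 8, and the added genes had few counts, so their ratios depend on the prior count. A 1.5-fold rule gave 1 higher and 17 lower, and a counting interval wholly outside 1.5-fold gave 10 lower. For the lower minimum counts and for this interval rule the share of all genes was not computed. Those counts therefore cannot be read as particular to the members. COL27A1 and COL9A3 were at least 2-fold lower under each scaling, prior count, unit and the centring, while COL26A1 was within 2-fold with log2(FPKM + 1) at −0.59, log2(TPM + 1) at −0.75 and the centring at −0.70. The added 1 draws ratios of genes at low FPKM or TPM toward 0. Without it, deposited TPM still put COL26A1 within 2-fold at −0.97, and put COL9A2 past it at −1.05. By FPKM without it they were at −1.01 and −1.10. Of the values of single members under the scalings, units, prior count and centring, 218 stayed inside their counting interval and 50 did not. Counting error limits the 5 measured members under 200 counts, whose intervals all include 0.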

Other observations

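Of the 22 collagen genes under 50 counts in both libraries, 5 had 0 counts in both: COL1A2, COL8A2, COL11A1, COL21A1 and COL22A1. COL15A1, a multiplexin of basement membrane zones like COL18A1, had 38 (vehicle) and 0 (iMQT_020) counts. With a floor of 3 counts this is at least 11.2-fold lower, while the 95% counting interval, whose end nearest 0 lay at −3.12 on the log2 scale, allows a smaller difference. COL16A1, a fibril-associated collagen, had 31 and 18 counts, and COL2A1, the main fibrillar chain of cartilage, had 27 and 14. COL6A6 had 21 and 20 counts. COL28A1 and COL24A1 had 7 counts each with vehicle and 0 and 2 with iMQT_020. COL20A1 had 4 and 10 counts. COL5A3 had 0 and 6 counts, and COL8A1, COL10A1, COL17A1 and COL23A1, also at 0 in the vehicle library, had 2 to 4 in the iMQT_020 library.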
